A study of Mus musculus with 86 samples.

Results

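Heat shock and cold-inducible genes were followed in 3 brain regions of wild house mice that differed in social network size. The genes were 10 of the 35275 rows of the count table, found by matching Ensembl identifiers to gene symbols: Hspa1a, Hspa1b, Hspa8, Hsp90aa1, Hsph1, Dnajb1, Hspb1, Hspa5, Cirbp and Rbm3. All 10 were found and all 10 passed the filter on low counts in every comparison. The mice were free-living Mus musculus domesticus of a Swiss barn population, of no defined strain and with no experimental treatment, and network size was the number of partners met in nest boxes. Prefrontal cortex and hippocampus came from 29 animals: 7 females and 7 males with large networks (labelled high gregariousness) and 7 females and 8 males with small networks (labelled low gregariousness). Hypothalamus came from 28 of them, 7 in each group, and libraries with the same number came from the same animal. The labels give no ages. The study's methods give estimated ages only as group averages, lowest for males with small networks, and age entered no fit here. All animals were caught in winter soon after sunrise and killed with CO2, and the regions were punched from frozen brain sections, so a library holds all cells of a punch. In such bulk tissue, fewer cells of a type and less RNA per cell cannot be told apart.

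Heat shock proteins are chaperones that bind unfolded proteins and help them fold, and their genes are switched on by the transcription factor Hsf1, which binds heat shock elements in their promoters when temperature or another stress damages proteins. Hspa5 belongs to the endoplasmic reticulum, where the unfolded protein response drives its gene through a different promoter element. Cirbp and Rbm3 encode RNA-binding proteins of another kind: their transcripts increase when cells cool mildly and decrease when they warm, and both follow the daily rhythm of body temperature. In the brain, neurons hold high basal levels of Hspa8 and Hsp90aa1, and Rbm3 is known for protecting synapses after cooling.

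Library totals lay between 33711824 and 81865801 counted reads. The member genes had ample reads at this depth except Hspa1a, with 33 to 548 reads per library, Hspb1, with 150 to 1003, and Hspa1b, with 99 to 2210. The region labels were checked with markers: the summed level of 3 prefrontal cortex genes was 257 to 597 CPM, a library's reads scaled to a common total in the prefrontal cortex and at most 177 elsewhere, and that of 6 hypothalamic neuropeptide genes was 91.2 to 1430 CPM in the hypothalamus and at most 81.4 elsewhere. The 3 hippocampus genes summed to 275 to 508 CPM in the hippocampus, a range that overlapped the 197 to 334 CPM of the prefrontal cortex. Choroid plexus and ependyma markers (3 genes, none at 0) stood apart in the prefrontal cortex of animal 20, at 428 CPM against a median of 6.37, and in the hypothalamus of animal 28, at 307 CPM against 34.5.

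Hspa1a (chr17:34969190-34972156, GRCm38, minus strand) and Hspa1b (chr17:34956436-34959238, minus strand) are neighbouring genes for the same stress-inducible chaperone, and reads shared by these near-identical copies may have been split or lost in the counting. Hspa1a also shares 564 exonic bases with Gm20481 on the opposite strand, and Rbm3 (chrX:8138975-8145880, minus strand) shares 94 with Rbm3os, so without a stated strand setting the reads of these partners cannot be told apart. Rbm3 has 1 named pseudogene. The other genes lie at chr9:40800984-40810087 (Hspa8, plus strand, with 3 small nucleolar RNA genes within it), chr12:110690605-110702728 (Hsp90aa1, minus strand), chr5:149614287-149636376 (Hsph1, minus strand), chr8:83608193-83612653 (Dnajb1, plus strand), chr5:135887919-135889563 (Hspb1, plus strand), chr2:34771970-34777547 (Hspa5, plus strand) and chr10:80165985-80172786 (Cirbp, plus strand).

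The promoters were searched for known elements of the heat shock, endoplasmic reticulum (ER) stress and mild-cold responses, and RefSeq sequence (GRCm38.p6, 250 bases before to 50 after the start) was at hand for 7 of the 10 genes. Hspa8, Hsp90aa1 and Rbm3 were not among them. The 250 bases before the start are given 5′ to 3′ for the paralogs, to show how alike they are, and for Hspb1, with motif matches in capitals.
Hspa1a, chr17:34972157-34972406, minus strand: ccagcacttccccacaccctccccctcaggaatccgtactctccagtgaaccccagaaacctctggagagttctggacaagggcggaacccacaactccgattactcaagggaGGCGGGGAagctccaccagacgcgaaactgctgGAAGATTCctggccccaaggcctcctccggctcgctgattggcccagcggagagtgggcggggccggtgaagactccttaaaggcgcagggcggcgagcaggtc
Hspa1b, chr17:34959239-34959488, minus strand: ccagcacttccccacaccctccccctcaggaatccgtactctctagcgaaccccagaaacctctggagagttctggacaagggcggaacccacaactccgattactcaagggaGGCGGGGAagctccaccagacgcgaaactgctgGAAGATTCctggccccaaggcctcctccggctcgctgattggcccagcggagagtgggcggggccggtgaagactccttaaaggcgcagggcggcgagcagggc
Hspb1, chr5:135887669-135887918, plus strand: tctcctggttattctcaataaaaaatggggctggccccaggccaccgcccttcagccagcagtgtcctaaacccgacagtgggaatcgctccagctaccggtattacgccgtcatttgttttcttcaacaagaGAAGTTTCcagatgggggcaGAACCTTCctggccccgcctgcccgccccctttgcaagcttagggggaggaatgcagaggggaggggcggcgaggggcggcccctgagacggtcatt
The paralog promoters differed at 4 of 300 bases (98.7% identical). Both held the same heat shock element of 2 units (GAANNTTC or TTCNNGAA, searched on both strands) starting 104 bases before the start, and both held the reverse complement of the mild-cold element TCCCCGCC 137 bases before it. Hspb1 held elements of 2 units 117 and 97 bases before its start.

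For the other genes with a match, the site is given with the bases around it, in the gene's direction and with the site in capitals. The Hsph1 site is a heat shock element of 3 units (GAANNTTCNNGAA), 15 bases after the start, which overlaps 2 of its 3 matches to the element of 2 units. The third match lies 54 bases before the start. The Hspa5 site is an ER stress element (CCAAT and CCACG with 9 bases between) 65 bases before the start, and the Cirbp site is a mild-cold element 247 bases before the start.
Hsph1, chr5:149636279-149636308, minus strand: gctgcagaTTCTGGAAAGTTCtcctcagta
Hsph1, chr5:149636351-149636380, minus strand: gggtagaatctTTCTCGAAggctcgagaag
Hspa5, chr2:34772020-34772049, plus strand: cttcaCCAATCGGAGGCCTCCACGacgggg
Cirbp, chr10:80167589-80167618, plus strand: ctgTCCCCGCCtcctagtcgctagcgggcg
All 4 sites lie inside the longer GENCODE gene models, so fewer bases are shown. Of all 32851 RefSeq promoters, 0.603% held the element of 3 units, 15.1% that of 2 units, 0.119% the ER stress element and 5.38% the mild-cold element. Dnajb1, the partner that delivers unfolded proteins to Hspa1a and Hspa8, held none of them except a mild-cold match after the start of its second promoter. These matches are descriptions of sequence and were not tested as binding sites.

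The 10 genes covered a wide span of levels. Per kilobase of exon, the median over 86 libraries was highest for the constitutive chaperones Hsp90aa1 (346 CPM per kb) and Hspa8 (233 CPM per kb). Hspa5, the chaperone of the endoplasmic reticulum, followed at 69.1, Hsph1, which exchanges the nucleotide of Hspa8 and its relatives, at 42.8, Cirbp at 39.6, Dnajb1 at 19.9 and Rbm3 at 13.8 CPM per kb. The small heat shock protein Hspb1 stood at 7.3, Hspa1b at 4.86 and Hspa1a at 1.44 CPM per kb. The ranges of neighbours in this order overlapped, except that all libraries of Hspa8 (170 to 310) lay above all of Hspa5 (43.1 to 114). The spread between libraries had a different order from the levels. Over all regions, the highest library exceeded the lowest 18.6-fold for Hspa1a and 16.5-fold for Hspa1b, but only 1.82-fold for Hspa8 and 2.38-fold for Hsp90aa1. Within a region, where each library is 1 animal, the fold was 7.82 to 15.4 for Hspa1a and 6.33 to 14.8 for Hspa1b. It was 1.61 to 1.68 for Hspa8 and 1.52 to 2.38 for Hsp90aa1.

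The central question was whether the level of a gene in a mouse's prefrontal cortex goes with its level in the hippocampus and hypothalamus of the same mouse. It did for nearly all of these genes: after subtraction of the mean of each sex and network group, 9, 10 and 10 of the 10 genes were correlated positively at an adjusted p under 0.05 for prefrontal cortex and hippocampus (n = 29), prefrontal cortex and hypothalamus (n = 28), and hippocampus and hypothalamus (n = 28). Of all genes tested, 26.9%, 25.4% and 27.3% passed the same threshold, and their median Pearson's r was 0.32, 0.33 and 0.33. The genes' own median r was 0.87, 0.81 and 0.91. The 10 genes were chosen with earlier results of these data known, so setting them beside all genes is a description. The tests were two-sided permutation tests of 100000 permutations of animals within groups, adjusted over all genes by the Benjamini-Hochberg method, with 1e-05 the smallest p they can give.

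Hspa1b, the more abundant of the inducible paralogs, spanned a wide range between mice. Its range was second to that of Hspa1a except in the hippocampus, where Hspa1b spanned 10.9-fold and Hspa1a 7.82-fold. Animals with large networks had 4.11 to 16.8 CPM in the prefrontal cortex (median 12.6), 4.08 to 22.9 in the hippocampus (median 15.5) and 2.81 to 26.1 in the hypothalamus (median 11.5). Animals with small networks had 5.06 to 25.9 (median 12.8), 6.61 to 44.6 (median 14.2) and 5.87 to 42.0 CPM (median 11.5) in the same regions. The groups overlapped over most of their range, and the high tail lay among small networks. The same individuals made up the tails everywhere: animal 2, a female with a large network, had 4.11, 4.08 and 2.81 CPM in prefrontal cortex, hippocampus and hypothalamus, and animal 10, a male with a small network, had 25.9, 44.6 and 39.4, and animal 23, a female with a small network, had 22.6, 35.9 and 42.0. The correlation between regions was 0.96, 0.90 and 0.93, in the order of the region pairs above, with 0.403%, 1.32% and 0.825% of all genes higher. Hspa1a gave 0.93, 0.88 and 0.90.

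**Figure D1:**
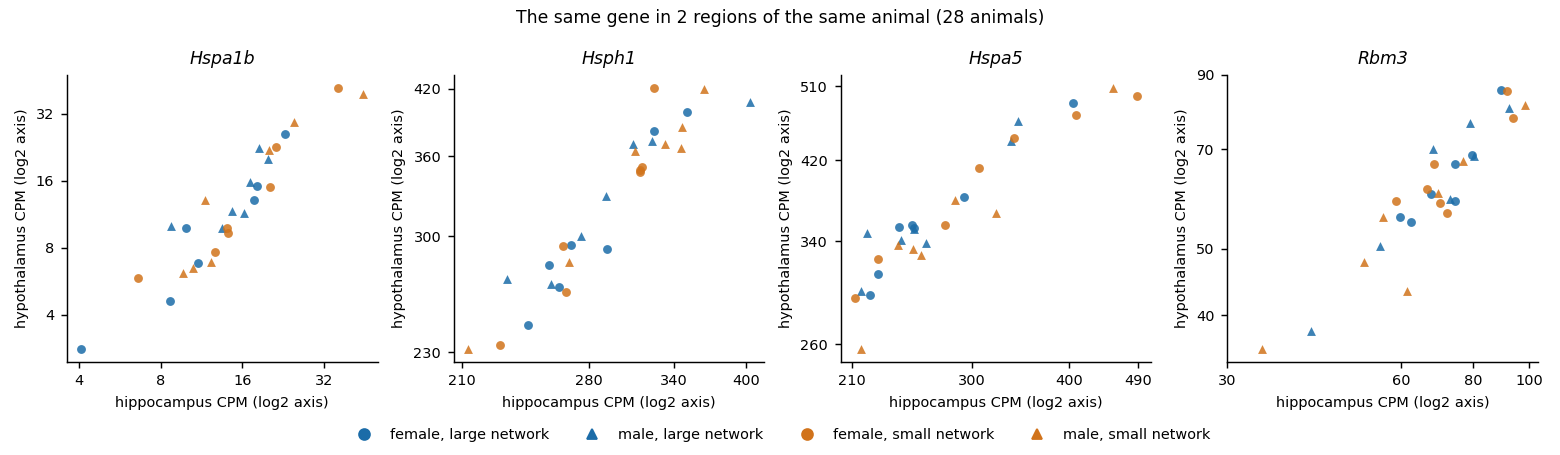
Each point is 1 animal (circles female, triangles male), the x axis is its CPM in the hippocampus and the y axis its CPM in the hypothalamus, both on log2 axes, for Hspa1b, Hsph1, Hspa5 and Rbm3 in 28 animals. Points lie along a rising line in each panel (r = 0.93, 0.94, 0.95 and 0.92 after group centring), with large (blue) and small (orange) networks intermixed along it.

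Hspa5 was also much alike across the regions of a mouse, with r of 0.94, 0.95 and 0.95. In the hypothalamus its level was 296 to 488 CPM in animals with large networks (median 351) and 257 to 508 CPM in those with small networks (median 361). Animal 7, a male with a small network, had 168, 216 and 257 CPM in prefrontal cortex, hippocampus and hypothalamus, the lowest level except in the hippocampus, where animal 4 had 212, and animal 10 was high in all 3 with 396, 456 and 508 CPM. Animals 10 and 23 therefore had high levels of both the cytosolic and the reticular chaperone genes.

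Hsph1 was also alike across the regions of a mouse, at a narrower range than Hspa5. Hsph1 lay at 237 to 375 CPM in the prefrontal cortex of animals with large networks (median 299.6) and at 241 to 393 CPM in those with small networks (median 329), and the correlations between regions were 0.86, 0.82 and 0.94. Animal 7 had 241, 213 and 232 CPM, near the bottom in each region, and animal 22, a male with a large network, had 375, 404 and 407, near the top. Dnajb1 gave r of 0.89, 0.80 and 0.93. Hspb1, which holds unfolded proteins without using ATP, gave 0.88, 0.74 and 0.62.

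The cold-inducible genes shared this pattern. Rbm3 had r of 0.83, 0.85 and 0.92, and Cirbp 0.76, 0.76 and 0.88. Animal 3, a female with a large network, had 83.2, 89.3 and 85.4 CPM of Rbm3, and animal 16, a male with a small network, had 26.3, 34.5 and 35.7. Cirbp was 121, 113 and 165 CPM in animal 3 and 56.5, 76.9 and 108 in animal 16, so these 2 mice lay toward opposite ends for both genes.

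The constitutive chaperones were less alike between regions than the other genes, except that Hspb1 lay below Hspa8 between hippocampus and hypothalamus. Hspa8 had r of 0.67, 0.65 and 0.78. Hsp90aa1 had 0.43, 0.53 and 0.61, and for prefrontal cortex and hippocampus it did not pass (adjusted p = 0.113). Its correlation between hippocampus and hypothalamus fell to 0.35 (unadjusted permutation p = 0.0755) without the 2 animals farthest from the median, so this value rests on those animals, and none of its 3 rank correlations (rho 0.42, 0.43 and 0.46) passed (adjusted p = 0.123, 0.1 and 0.0751). For the other 9 genes, leaving out the 2 farthest animals gave r from 0.52 to 0.95. The share of the variance of a gene that lay between animals (intraclass correlation over the 3 regions, 28 animals) was 0.92 for Hspa5, 0.88 for Hspa1a and Hspa1b, 0.86 for Hsph1 and Rbm3, 0.79 for Cirbp, 0.77 for Dnajb1, 0.74 for Hspb1, 0.69 for Hspa8 and 0.48 for Hsp90aa1, beside a median of 0.30 over 17824 genes.

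Other gene groups were counted in the same way, beside the 26.9%, 25.4% and 27.3% of all genes. Of 18 endoplasmic reticulum stress genes, 15, 14 and 16 were positively correlated in the 3 region pairs, of 13 clock genes 11, 12 and 12, and of 7 glucocorticoid targets 6, 6 and 7. Of 19 further cytosolic chaperone and heat shock factor genes, 10, 10 and 16 were, and of 11 immediate early genes 11, 5 and 10. Of 5 small heat shock proteins other than Hspb1, 1, 0 and 1 passed, which is near the share of all genes for so short a list.

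Libraries differed in ways the groups do not describe. Group-centred log2 library total had correlations from -0.45 to 0.49 with the 10 genes. The share of mitochondrial reads had up to 0.65, for Hspa8 in the prefrontal cortex. Microglia markers (3 genes, none at 0, summed level 60.4 to 126 CPM) had 0.49, 0.39 and 0.52 with Hspa5 in prefrontal cortex, hippocampus and hypothalamus. Astrocyte markers (4 genes, none at 0, 1340 to 4880 CPM) had -0.57 with Rbm3 in the prefrontal cortex and 0.48 with Hsph1 in the hippocampus, and neuron markers (3 genes, none at 0, 1850 to 5730 CPM) had 0.55 with Cirbp in the prefrontal cortex. Their part in the co-variation was not tested. Without animals 20 and 28, the libraries with high choroid plexus markers, 9, 10 and 10 of the 10 genes were again called in the 3 region pairs. Of all genes, 25.1%, 23.5% and 25.5% were then called in either direction. By the study's methods, the hypothalamus of animal 19, a female with a large network, had the lowest RNA integrity, and the study kept it. Without animals 12 and 19, 25.1%, 22.7% and 26.1% of all genes were called in either direction in the 3 region pairs.

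The co-variation was then compared between large and small networks, to ask whether it depended on network size. In no region pair did any of the 10 genes differ at an unadjusted p under 0.05, by a permutation of the network label within sex of the difference in Fisher's z. Of all genes, 5.65%, 5.51% and 4.59% did. The lowest p was that of Cirbp between prefrontal cortex and hippocampus (p = 0.102), with r of 0.93 in large and 0.62 in small networks, a difference in Fisher's z of 0.903. For Hspa5 the values were 0.96 and 0.93 in the same pair, and for Hsph1 they were 0.88 and 0.85. With 14 or 15 animals in a group, a p above the threshold does not show that the correlations were alike. Of the 135 pairs of genes within a region described next, 8 differed between network sizes at an unadjusted p under 0.05, a comparison added after the data were seen. At that threshold about 1 in 20 would do so by chance, so the count is no result about these genes.

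**Figure D2:**
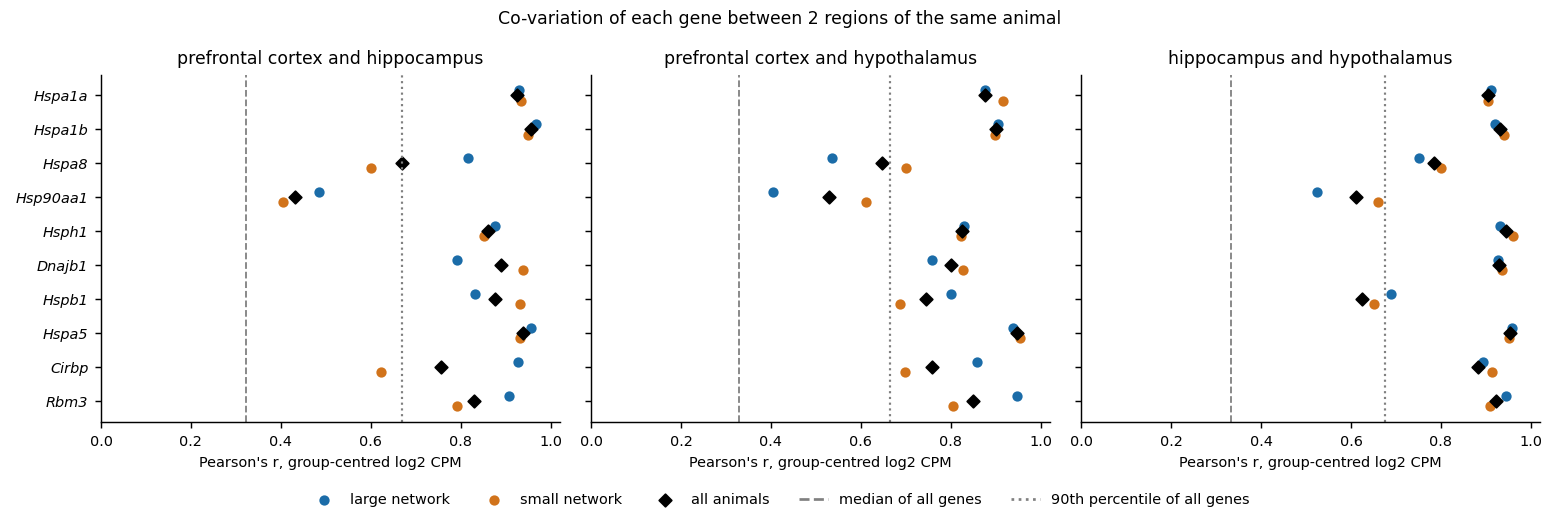
Pearson's r of group-centred log2 CPM (x axis, 0 to 1) between 2 regions of the same animal for each gene (rows), in all animals (black), large (blue) and small (orange) networks, with the median (dashed) and 90th percentile (dotted) of all genes. All members lie right of the median of all genes, from 0.43 for Hsp90aa1 to 0.96 for Hspa1b.

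Within a region, the 10 genes fell into sets that went up and down together among mice, though these sets were not apart in every region. Of 135 relations (45 pairs in 3 regions), 95 had an unadjusted permutation p under 0.05. The pairs share genes and animals, so they are not 135 separate results, and no share was computed for other pairs. Low p-values were common beyond them when each gene was regressed on Hsph1 (limma, described below). An unadjusted p under 0.05 was reached by 4197 of 18451 (prefrontal cortex), 3058 of 18597 (hippocampus) and 3934 of 18751 (hypothalamus). On Cirbp the counts were 4191, 2912 and 4919. The paralogs Hspa1a and Hspa1b were correlated at 0.92, 0.94 and 0.94 in prefrontal cortex, hippocampus and hypothalamus, though their reads may be shared. Hspa1b went with Dnajb1 (0.77, 0.74 and 0.86) and with Hspb1 (0.65, 0.69 and 0.68). Hspa8, Hsp90aa1 and Hsph1 formed a second set with r from 0.70 to 0.90. Between these sets, Hsph1 and Dnajb1 had r of 0.04 in the prefrontal cortex, 0.40 in the hippocampus and 0.56 in the hypothalamus. Hsph1 had 0.39, 0.59 and 0.71 with Hspa1b and 0.31, 0.54 and 0.70 with Hspb1. In the hypothalamus the last 2 values were as high as that of Hspa1b with Hspb1, so the sets were not apart there. Hspa5 was correlated with both sets, at 0.57 to 0.71 with Hspa1b and at 0.62 to 0.79 with Hsph1.

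Cirbp and Rbm3 went together, at 0.82, 0.79 and 0.77, and opposite to Hsph1. Hsph1 and Cirbp had r of -0.73, -0.78 and -0.83, and Hsph1 and Rbm3 had -0.77, -0.79 and -0.77. Hspa8 and Hsp90aa1 had negative r with both cold-inducible genes in each region, between -0.53 and -0.83. The inducible paralogs did not share this opposition in the prefrontal cortex, where Hspa1b had r of -0.15 with Cirbp and -0.06 with Rbm3. In the hypothalamus Hspa1b had -0.56 with Cirbp and -0.29 with Rbm3.

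**Figure D3:**
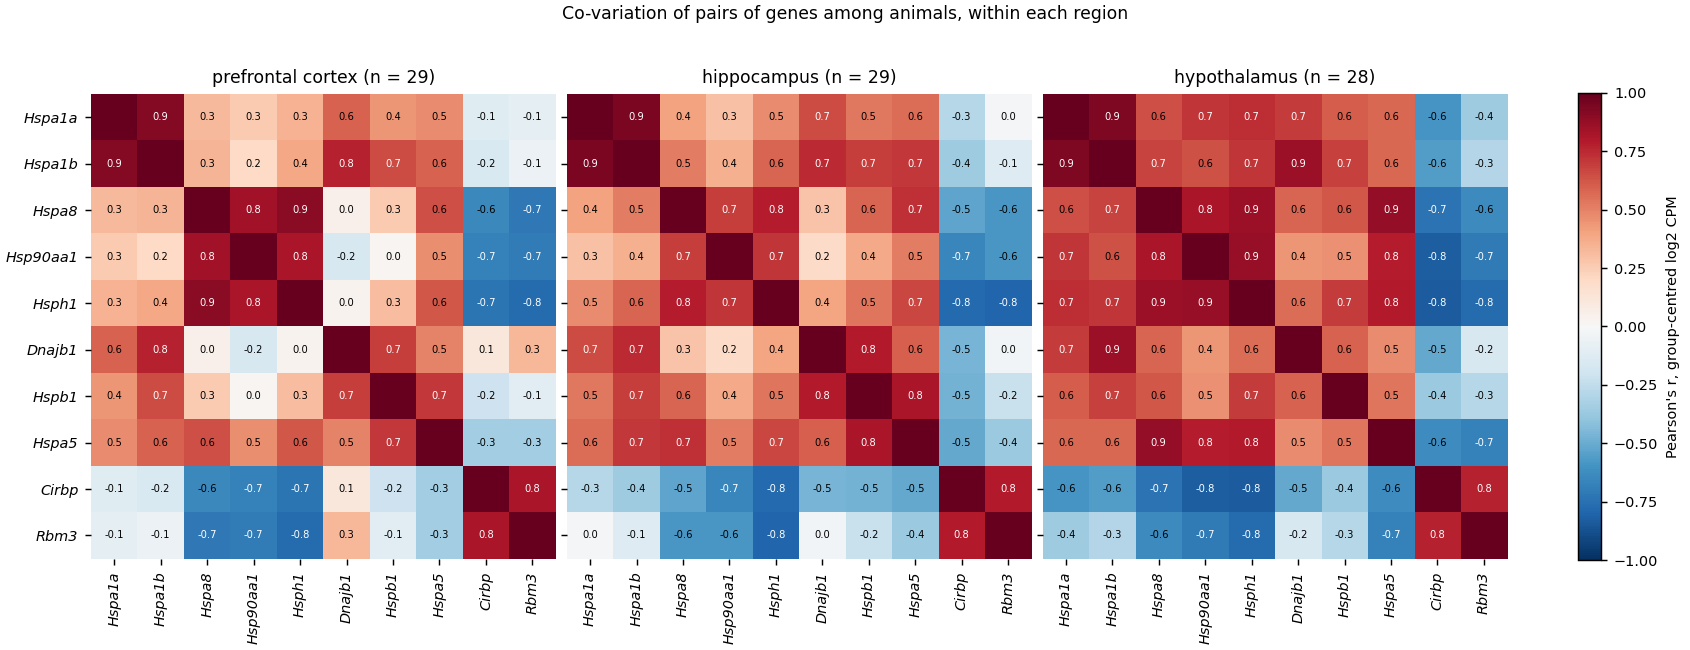
Pearson's r (colour, -1 to 1) of group-centred log2 CPM among animals for each pair of genes within prefrontal cortex, hippocampus and hypothalamus. Hspa8, Hsp90aa1 and Hsph1 form a red block and are blue against Cirbp and Rbm3 in every region, whereas Hspa1a, Hspa1b and Dnajb1 are pale against Rbm3 in the prefrontal cortex and hippocampus.

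A value of 2 genes in the same library shares its RNA preparation and its normalization, so Hsph1 in 1 region was also set against the cold-inducible genes in another region of the same mouse. This comparison was chosen after the values within regions were seen. All 12 relations were negative, from -0.53 to -0.89. They reuse the same animals and genes, and each of these genes was itself correlated between regions. Negative values were therefore likely given those within regions, and they are not independent of them. No share of all genes was computed for them. The strongest joined Hsph1 in the prefrontal cortex and Rbm3 in the hypothalamus (r = -0.89, rho = -0.88, permutation p = 1e-05), which stayed at -0.85 without the 2 farthest animals. The weakest joined Hsph1 in the hypothalamus and Rbm3 in the prefrontal cortex (r = -0.53, rho = -0.64, permutation p = 0.00839). On means over the 3 regions, Hsph1 had r of -0.81 with Cirbp and -0.80 with Rbm3 (rho -0.76 and -0.81), and Cirbp and Rbm3 had 0.81 (rho 0.82). Relative to its group, animal 22 was highest in mean Hsph1 and next to lowest in Rbm3 (36.6, 41.9 and 37.9 CPM), and animal 7 was lowest in mean Hsph1 and highest in Cirbp (99.7, 133 and 175 CPM).

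**Figure D4:**
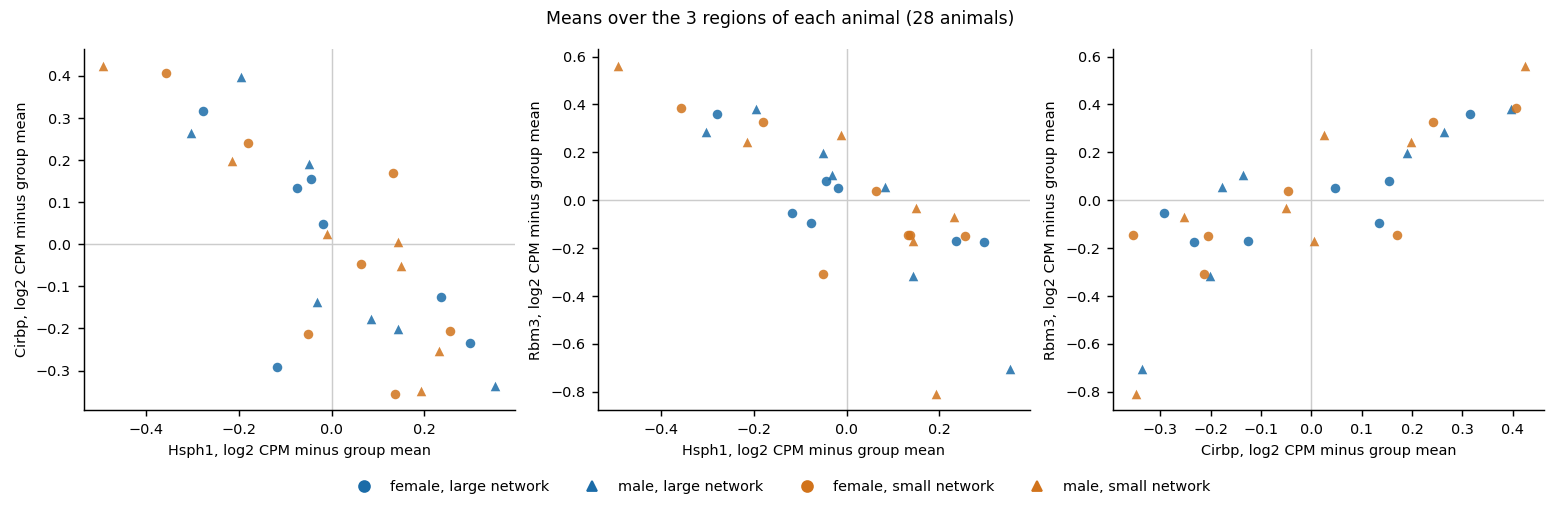
Each point is the mean of 1 animal over its 3 regions, as log2 CPM minus the mean of its sex and network group, for Hsph1 against Cirbp (r = -0.81), Hsph1 against Rbm3 (r = -0.80) and Cirbp against Rbm3 (r = 0.81), in 28 animals. Large (blue) and small (orange) networks and both sexes (circles female, triangles male) are intermixed, and slopes were not compared between them.

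To see which genes outside the 10 went with this axis, every gene was regressed on Hsph1, and separately on Cirbp, within each region, with the 4 group means removed (limma, Benjamini-Hochberg over all genes). On Hsph1, 3, 4 and 7 of the other 9 members had a positive slope at an adjusted p under 0.05 in prefrontal cortex, hippocampus and hypothalamus, against 3.41%, 1.08% and 1.7% of all genes. Cirbp and Rbm3 had a negative slope in each region, against 3.96%, 0.984% and 1.62% of all genes. The Rbm3 slopes were -1.45 (SE 0.23), -1.18 (SE 0.17) and -0.90 (SE 0.15) log2 units per log2 unit of Hsph1. On Cirbp, Rbm3 was the 1 member with a positive slope in each region (4.36%, 0.393% and 4.76% of all genes), and 3, 2 and 7 members had a negative one (2.48%, 0.522% and 5.08% of all genes). With the log2 library total as a covariate, the members called on Hsph1 in the hippocampus went from 6 to 3 of 9, and those called on Cirbp in the hypothalamus from 8 to 5 of 9. Of all genes, 2.06% were called on Hsph1 in the hippocampus without the covariate and 0.333% with it. In the hypothalamus these shares were 9.84% and 3.58% on Cirbp, and 3.32% and 1.53% on Hsph1.

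Some chaperone genes outside the 10 went the way of Hsph1. Of 19 cytosolic chaperones and their factors, 8, 9 and 12 had a positive slope on Hsph1 in prefrontal cortex, hippocampus and hypothalamus and 0 a negative one, with medians of 0.37, 0.31 and 0.40 beside -0.02, 0.01 and 0.00 for all genes. Hspa4, a nucleotide exchange factor like Hsph1, had slopes of 0.52 (SE 0.08), 0.36 (SE 0.06) and 0.43 (SE 0.06). Stip1, which links Hsp70 chaperones to Hsp90, had 0.51, 0.47 and 0.59. Of 18 endoplasmic reticulum stress genes, 5, 6 and 9 were positive and 0 negative. Among them were Pdia3, a disulfide isomerase (0.68, 0.67 and 0.53), Hsp90b1 (0.71, 0.70 and 0.68) and the calcium-binding chaperone Calr (0.92, 0.92 and 0.53). Of 5 small heat shock proteins, 0, 1 and 1 passed, with median slopes of -0.25, -0.33 and 0.05, and the one was Cryab in the hippocampus (0.85, SE 0.15) and hypothalamus (0.77, SE 0.16). With the log2 library total as a covariate, the cytosolic chaperones called in the hippocampus went from 9 to 3 of 19 and the endoplasmic reticulum stress genes from 6 to 4 of 18, and in the hypothalamus from 12 to 9 and from 9 to 7.

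Clock genes and glucocorticoid targets included members that went the other way. In the prefrontal cortex 7 of 13 clock genes had a negative slope on Hsph1 and 2 a positive one, in the hippocampus 1 and 0, and in the hypothalamus 4 and 0. Ciart, a repressor within the clock, had slopes of -2.13 (SE 0.36), -1.20 (SE 0.32) and -0.89 (SE 0.18). Per3, of the period family, had -1.04 (SE 0.19) in the prefrontal cortex and -0.48 (SE 0.12) in the hypothalamus, while Clock, of the activating arm, had 0.60 (SE 0.13) in the prefrontal cortex. The hour of capture is not given for each animal in the sources used here. Of 7 glucocorticoid targets, 3, 2 and 2 had a negative slope and 0 a positive one: Fkbp5, which dampens the glucocorticoid receptor, had -1.06, -0.74 and -0.76 in prefrontal cortex, hippocampus and hypothalamus, Sgk1 had -1.002 (SE 0.24) in the prefrontal cortex and -1.07 (SE 0.25) in the hypothalamus, and Sult1a1 had -1.54 (SE 0.32) in the prefrontal cortex and -1.25 (SE 0.27) in the hippocampus. With the library total as a covariate, the glucocorticoid targets called in the hippocampus went from 2 to 0 and the clock genes from 1 to 0, and the clock genes called in the hypothalamus from 4 to 2. None of 11 immediate early genes passed in either direction in any region.

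On Cirbp the lists mirrored this in part. Of the cytosolic chaperones 4, 3 and 9 of 19 had a negative slope, led by Hspa4 (-0.29, -0.29 and -0.45), with 1, 0 and 0 positive. Of the endoplasmic reticulum stress genes 0, 1 and 7 of 18 were negative. Among clock genes, Clock was negative in the prefrontal cortex (-0.40, SE 0.08) and hypothalamus (-0.54, SE 0.11), and Cry2 positive in the hypothalamus (0.36, SE 0.10). Sgk1 (1.01, SE 0.28) and Fkbp5 (0.64, SE 0.20) were positive in the hypothalamus, and 0 of 7 glucocorticoid targets passed elsewhere. With the library total as a covariate, Sgk1, Fkbp5 and Cry2 no longer passed in the hypothalamus, where the endoplasmic reticulum stress genes went from 7 to 5 and the cytosolic chaperones stayed at 9.

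The genes whose pattern was most like Hsph1, ranked by the lowest of the 3 within-region correlations among 17823 genes, were Pdia3 (0.84), Hspa4 (0.82), Caprin1 (0.80), Hsp90b1 (0.80) and Mettl16 (0.78), and Hspa8 ranked 5 among them. At the opposite end, Rbm3 ranked 1 and Cirbp 4 among all genes for inverse likeness. The gene most like Cirbp was Rbm3 (0.77), followed by Cyb5r3 (0.75), Armcx5 (0.75), Slc25a28 (0.72), Map2k5 (0.71) and Pex14 (0.71).

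**Figure D5:**
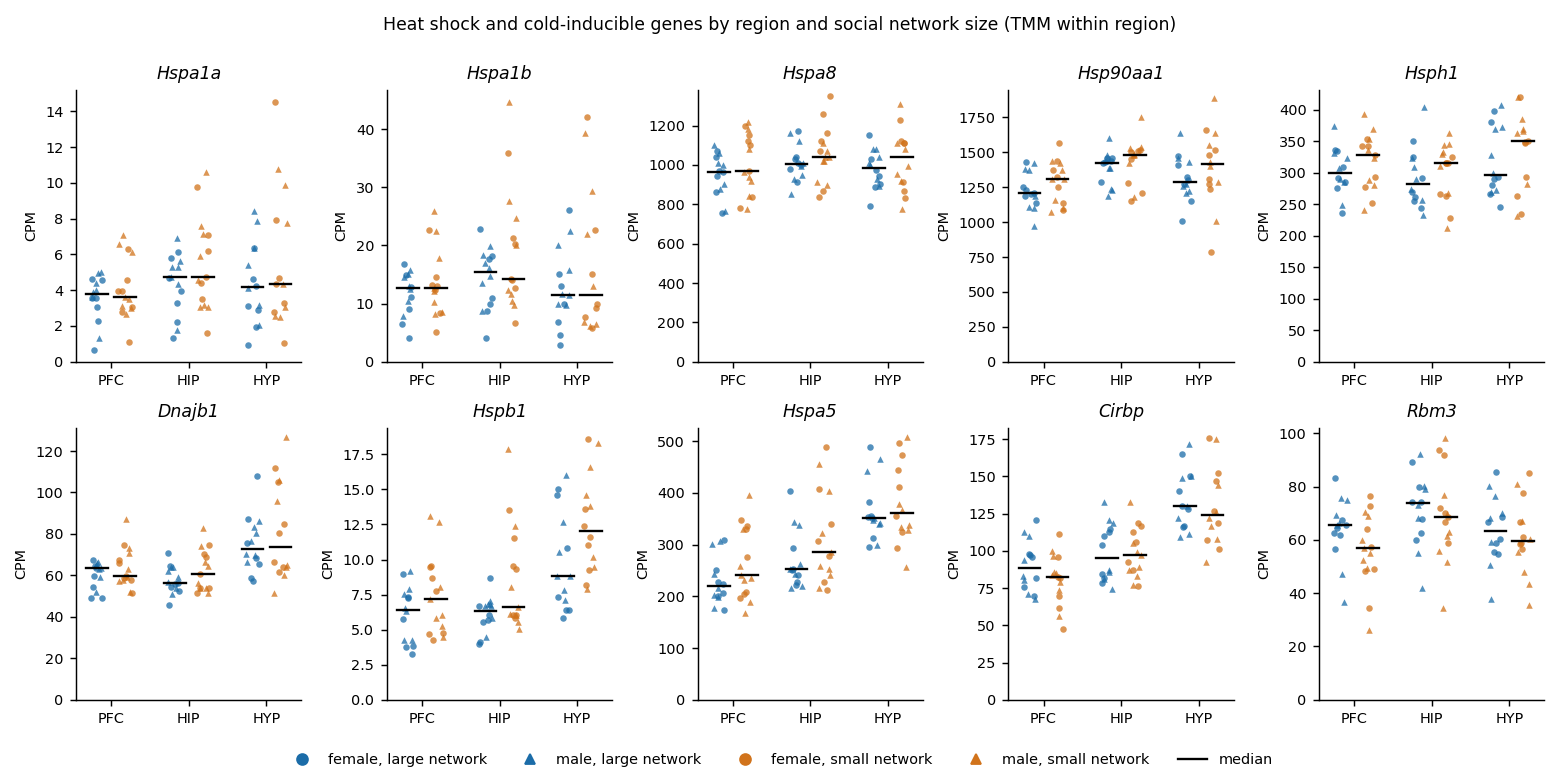
CPM (y axes, from 0, TMM scaled within a region) of the 10 genes in prefrontal cortex (PFC), hippocampus (HIP) and hypothalamus (HYP). Each point is 1 library (circles female, triangles male; blue large, orange small network) and bars are medians; large and small networks overlap for each gene, and the highest Hspa1b libraries, at 44.6 and 42.0 CPM, are from animals with small networks.

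The level of these genes did not differ between network sizes at the threshold used. Fold changes are small relative to large networks, by edgeR's quasi-likelihood test with Benjamini-Hochberg adjustment over all genes. In the 6 comparisons within a sex and region, 0 of 10 genes passed in each, and the lowest adjusted p was 0.291. Of all genes, 0.0% passed in the hippocampus of females, the hippocampus of males, the hypothalamus of males and the prefrontal cortex of males, 0.00552% in the hypothalamus of females and 0.0113% in the prefrontal cortex of females. Over both sexes, 0 of 10 passed in each region, against 0.0% of all genes in the hippocampus and hypothalamus and 0.0163% in the prefrontal cortex. At an unadjusted p under 0.05 there was 1 of 60 values within a sex and 2 of 30 over both sexes, all 3 for Hspb1, and DESeq2 called 0 as well.

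The signs of the fold changes were counted as a description. Over both sexes, 24 of 24 values of the 8 heat shock genes were above 0, and 6 of 6 values of Cirbp and Rbm3 were below 0, although none passed. Within a sex, 46 of 48 heat shock values and 3 of 12 cold values were above 0, the latter in females. Values of 1 gene in 3 regions share their animals and the genes are correlated, so these counts are not independent. The share of all genes above 0 was not counted. The median of all genes over both sexes was 0.005 in the hippocampus, 0.0021 in the hypothalamus and 0.0019 in the prefrontal cortex. Hspb1 came nearest to the threshold. In the hippocampus it lay at 3.97 to 8.65 CPM in large networks (median 6.34) and at 5.06 to 17.9 in small networks (median 6.61), and in the hypothalamus at 5.81 to 15.96 (median 8.85) and 7.91 to 18.6 (median 11.98). The ranges overlapped, and the means differed more than the medians in the hippocampus. The log2 fold change over both sexes was 0.51 (SE 0.17, adjusted p = 0.436) in the hippocampus, 0.34 (SE 0.16, adjusted p = 0.9998) in the hypothalamus and 0.28 (SE 0.18, adjusted p = 0.615) in the prefrontal cortex. In females, the hippocampal value was 0.59 (SE 0.21, adjusted p = 0.291, exact permutation p = 0.0326, where 7 against 7 animals allow no p below 0.000583).

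Hspa1b had log2 fold changes of 0.40 (SE 0.24), 0.39 (SE 0.33) and 0.24 (SE 0.20) in hippocampus, hypothalamus and prefrontal cortex, none of which passed (adjusted p = 0.591, 0.9998 and 0.673). Rbm3 was at -0.05 (SE 0.11), -0.07 (SE 0.11) and -0.18 (SE 0.12), and Cirbp at -0.00 (SE 0.09), -0.06 (SE 0.09) and -0.15 (SE 0.10). Means over the 3 regions of an animal, a comparison added after the data were seen, differed by 0.32 log2 CPM for Hspb1 (2.79 in large, 3.11 in small, permutation p = 0.0612, 14 against 14 animals), and the other 9 genes had p from 0.331 to 0.502. Of the 73 genes in the 6 lists, 0 passed in any of these 9 comparisons by edgeR, and at most 4 genes of a list had an unadjusted p under 0.05 in a comparison. The lowest p among them over both sexes were those of the glucocorticoid target Tsc22d3 (0.24, SE 0.06, adjusted p = 0.361) and the chaperone partner Fkbp4 (0.22, SE 0.06, adjusted p = 0.362), both in the hippocampus.

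The sexes did not differ at the threshold either. For females against males, 0 of 10 genes passed in any region, with 0 at an unadjusted p under 0.05 and 0 by DESeq2, against 0.102%, 0.117% and 0.0976% of all genes in hippocampus, hypothalamus and prefrontal cortex. The difference between the female and male effects of network size passed for 0 of 10 genes and for 0.0% of all genes in each region, with 0 of 30 values at an unadjusted p under 0.05.

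Levels of some of the 10 genes differed between regions in the main fit, in shares near or below those of all genes. The counts are therefore no result about these genes. This fit took the libraries as independent although the same animals gave the regions. Hypothalamus stood above prefrontal cortex for Hspb1 (log2 fold change 0.52, SE 0.13), Cirbp (0.44, SE 0.07), Hspa5 (0.40, SE 0.08) and Dnajb1 (0.15, SE 0.07), and below it for Hspa8 (-0.16, SE 0.05). These were 5 of 10 genes, against 75.3% of all genes. Hypothalamus and hippocampus differed for 7 of 10, against 68.8% of all genes: Hspb1 (0.55, SE 0.13), Cirbp (0.35, SE 0.07), Dnajb1 (0.31, SE 0.07) and Hspa5 (0.29, SE 0.08) were higher in the hypothalamus, and Rbm3 (-0.24, SE 0.09), Hsp90aa1 (-0.13, SE 0.05) and Hspa8 (-0.11, SE 0.05) lower. Cirbp and Rbm3, which went together among mice, differed in opposite directions between these regions. Hippocampus and prefrontal cortex differed for 2 of 10, Hsph1 (-0.19, SE 0.06) and Dnajb1 (-0.17, SE 0.07), against 63.3% of all genes.

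The animal as a replicate block raised these counts. With it, 7 of 10 genes differed between hippocampus and prefrontal cortex (70.0% of all genes), 9 of 10 between hypothalamus and hippocampus (74.8%) and 8 of 10 between hypothalamus and prefrontal cortex (79.8%). Hspa1a and Hspa1b were then higher in the hippocampus than in the prefrontal cortex by 0.23 (SE 0.07) and 0.20 (SE 0.07) on the log2 scale, and Hspa1b was lower in the hypothalamus than in the hippocampus (-0.30, SE 0.07). Neuron markers (3 genes, none at 0) summed to 4200 to 5730 CPM in the prefrontal cortex, 2970 to 3560 in the hippocampus and 1850 to 2600 in the hypothalamus, and oligodendrocyte markers (4 genes, none at 0) to 1690 to 3310, 3030 to 5350 and 2680 to 5640. Their part in the differences between regions was not tested.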

How the data were processed

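RNA from punches of frozen brain sections was sequenced as paired ends by the authors, aligned with STAR to mm10 (GRCm38) and counted per gene with HTSeq, and the read counts they deposited, not normalized, were used here. The submitters' processing notes name CASAVA 1.8.2, STAR and DESeq2. The annotation release and the strand setting are not given in the sources used here. Of 35275 genes, 34490 were found in GENCODE vM21, which gave symbols, loci and exon lengths, and 4866 had no count in any library. Counts were tested with edgeR 4.0.16 in R 4.3.3 (TMM, filterByExpr with a minimum count of 10, quasi-likelihood test), with DESeq2 1.42.0 as an alternative and an adjusted p of 0.05 as the threshold. CPM were TMM-scaled within a region, and over all libraries where levels are given per kilobase. Co-variation used log2 CPM (prior count 2) centred on the 4 groups of sex and network size, with 100000 permutations within groups, and slopes on Hsph1 and Cirbp used limma 3.58.1. The statistics were first tested on simulated data. P-values measure the spread between animals, except in the region comparisons. There the main fit took the 86 libraries as independent, although the same animals gave the regions. The fit with the animal block used the spread within animals.

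The labels give the libraries of an animal the same number. Deviations from group means over all genes correlated between the regions of an animal at a median of 0.428 (prefrontal cortex and hippocampus), 0.437 (prefrontal cortex and hypothalamus) and 0.4 (hippocampus and hypothalamus), and in all animals above 0.1. Between different animals the median was -0.017, -0.013 and -0.015 in the same order. The highest correlation was with the animal's own library in 29 of 29, 27 of 28 and 28 of 28 animals. The pairing was taken from the labels, and the region comparisons were fitted without the animal block and, as an alternative, with it. The 10 genes and the gene lists were chosen with earlier results of these data known. Named genes were the 10 members, the 5 genes outside them most like Hsph1 or Cirbp, and up to 4 genes of a list with the smallest p. Alternatives were DESeq2 size factors, no filter beyond 1 count, other fits, subsets of animals and the library total as a covariate.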

Additional observations from a re-analysis of the deposited data

Results flagged for a closer look

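Among 120 groups of 7 or 8 libraries of a gene, sex, network size and region, 5 held a library whose gap to the nearest other exceeded Dixon's 95% critical value, and chance gives about 1 in 20 groups. Hspa1a was lowest in the prefrontal cortex of animal 30 (male, large network) at 1.34 CPM, with the nearest at 3.64 and the group median at 4.02. Hsp90aa1 was highest in the prefrontal cortex of animal 9 (female, large network) at 1430 CPM, with the nearest at 1250, and lowest in the hippocampus of animal 19 (female, large network) at 1290 CPM, with the nearest at 1420. Hspa5 was highest in the hippocampus of animal 17 (female, large network) at 404 CPM, with the nearest at 293. Rbm3 was highest in the prefrontal cortex of animal 3 (female, large network) at 83.2 CPM, with the nearest at 67.4.

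Of 135 correlations between pairs of the genes within a region, 8 differed between large and small networks at an unadjusted permutation p under 0.05, with the network label permuted within sex and no adjustment over the relations. At that threshold about 1 in 20 relations would do so by chance, so the values are given as a description. In the prefrontal cortex, Hspa5 had r of 0.20 with Hspa1a in large and 0.72 in small networks (permutation p = 0.0457), and of 0.27 and 0.79 with Hspa1b (permutation p = 0.0302). In the hippocampus, Hspa5 had 0.18 and 0.79 with Hspa1a (permutation p = 0.0136), 0.41 and 0.88 with Hspa1b (permutation p = 0.022) and 0.61 and 0.90 with Hspb1 (permutation p = 0.0279). There, Hspb1 had 0.09 and 0.76 with Hspa1a (permutation p = 0.0307) and 0.31 and 0.87 with Hspa1b (permutation p = 0.0318). In the hypothalamus, Hspa8 and Hspa5 had 0.70 and 0.97 (permutation p = 0.00592).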

How the results depend on the processing

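No value of the 10 genes that passed a test changed direction under any alternative. For network size, 0 of 10 genes were called under every alternative run, and 39 of 1154 values within a sex, 1 of 120 over both sexes, and none for sex changed sign without being called. The number of all genes called depended on the tool. By the DESeq2 Wald test, network size called 97 genes in the hippocampus of females, 43 in the hypothalamus of females, 74 in the prefrontal cortex of females, 1 in the hypothalamus of males and 2 in the prefrontal cortex of males, against 0, 1, 2, 0 and 0 by edgeR. Over both sexes DESeq2 called 12 genes in the hippocampus, 6 in the hypothalamus and 23 in the prefrontal cortex, against 0, 0 and 3. It called 30, 40 and 28 genes between the sexes in hippocampus, hypothalamus and prefrontal cortex, against 19, 22 and 18, and 1 and 30 for the interaction in hippocampus and prefrontal cortex, against 0. With all genes of at least 1 count, 1, 3 and 6 genes were called in females (hippocampus, hypothalamus, prefrontal cortex), and 1 in the hippocampus and 1 in the hypothalamus over both sexes. With all 4 groups in 1 fit, 0 were called in the hypothalamus of females, 4 in the prefrontal cortex of females and 1 in that of males. Leaving out each animal in turn gave 0 to 14 genes in the hypothalamus of females (14 without female small animal 5, 4 without female large animal 26, 1 without female large animal 9 and 0 without any other), 0 to 5 in the prefrontal cortex of females (5 without small animal 21, 4 without small animal 4, 1 without large animal 3, 17 or 26, and 0 without large animal 9 or 19) and 0 to 1 in that of males (1 without small animal 18).

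Between regions, the replicate block raised the calls among the 10 genes from 2 to 7 (hippocampus and prefrontal cortex), 5 to 8 (hypothalamus and prefrontal cortex) and 7 to 9 (hypothalamus and hippocampus), and over all region alternatives 12 of 120 values were gained and 3 lost. Co-variation between regions lost 27 of 300 values, which included those of smaller subsets. In females, males, large and small networks alone, the genes called were 1361, 2190, 2744 and 1326 for prefrontal cortex and hippocampus, 1581, 1448, 2111 and 1208 for prefrontal cortex and hypothalamus, and 1740, 1558, 2048 and 1607 for hippocampus and hypothalamus, against 4890, 4573 and 4977 in all animals. Of the 10 genes, 6 were called for prefrontal cortex and hypothalamus in males alone and 6 in small networks alone. With log2 library total as a covariate, the genes called on Hsph1 were 62 in the hippocampus (383 without it) and 287 in the hypothalamus (623), and on Cirbp 60 (170) and 672 (1845), with 3 members called on Hsph1 in the hippocampus (6) and 5 on Cirbp in the hypothalamus (8). The causes of these changes were not tested. Leaving out animals 20 and 28, relations of Hsph1 across regions, pair differences by network size and means per animal were added after the data were seen. Hspa1a, Hspa1b and Hspb1 had the lowest counts, and how much counting error adds to their spread was not tested.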
